A study of Mus musculus with 9 samples.

Results

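The genes described here are 32 of the 22255 genes in the count table: 19 genes known for the epithelium of the choroid plexus (Ttr to Abca4) and 13 genes known for ciliated ependymal cells (Foxj1 to Fam183b). They were listed by symbol as markers of those cells, but they were chosen by what had been measured: earlier results on the same 9 samples had already shown how widely they spread and how the treatment groups compared. Their spread, their direction between the groups and the likeness of their patterns are therefore a description and no independent evidence. The tissue was the hippocampus of Fmr1 KO mice on the C57Bl/6J strain, and every sample, controls included, was labelled as knockout for Fmr1, the gene silenced in fragile X syndrome. Mice had received either the peripherally restricted CB1 receptor antagonist AM6545 on a sub-chronic schedule (4 samples, A, B, C and E) or vehicle (5 samples, A to E). RNA came from synaptoneurosomes, a preparation of pinched-off, resealed synaptic endings that is enriched for synaptic RNA but is not free of RNA from other cells. Dose, age and sex were not given in the sources used here. The labels do not say that each sample was a separate animal, so a p-value measures the spread between these samples only.

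The choroid plexus is a folded sheet of epithelial cells over blood vessels inside the brain ventricles. It makes cerebrospinal fluid, secretes carrier proteins into it, and moves ions, water and vitamins between blood and fluid. Ependymal cells line the ventricle walls, including the one next to the hippocampus, and move the fluid with beating cilia. Choroid epithelial cells carry cilia as well, and a few of the markers are made elsewhere: Enpp2 is also made by oligodendrocytes and Kl by some neurons. Among transcription factors, OTX2 is a regulator of choroid plexus identity, while FOXJ1 and the RFX factors switch on genes for motile cilia.

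Promoter sequence from RefSeq (GRCm38.p6) was at hand for 23 of the 32 members, 13 choroid and 10 ciliated. In the 250 bases before the start, the RFX core GTTGCC, searched on both strands, was present in 4 of 13 choroid promoters (30.8%) and in 4 of 10 ciliated promoters (40.0%), against 10.5% of the 27025 promoters of the same length. The OTX2 core TAATCC was present in 1 promoter of each list, against 6.38% of all promoters. The FOXJ1 core GTAAACA was in none of the 23, against 3.09% of all. These are matches of letters and not sites shown to be bound, and none of the 3 motifs contains another. Windows of 2 ciliated and 2 choroid genes are printed because they show the RFX core in both lists, with 2 matches in each of the ciliated genes and 1 in each of the choroid genes. They run 5′ to 3′ on the strand of the gene, and capitals mark the core on either strand (GGCAAC is its reverse complement). The window of Fam183b is chr11:58801961-58802210 on the minus strand, that of Tekt1 chr11:72361883-72362132 on the minus strand, that of Kcne2 chr16:92292139-92292388 on the plus strand and that of Aqp1 chr6:55336049-55336298 on the plus strand, and none holds an annotated exon. The Tekt1 window precedes the RefSeq start but lies inside the GENCODE gene model, chr11:72344722-72362442.
Fam183b: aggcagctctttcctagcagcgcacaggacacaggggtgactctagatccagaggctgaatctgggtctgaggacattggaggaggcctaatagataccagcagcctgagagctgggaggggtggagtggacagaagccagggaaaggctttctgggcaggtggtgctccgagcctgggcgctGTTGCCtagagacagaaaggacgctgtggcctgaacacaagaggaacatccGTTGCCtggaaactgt
Tekt1: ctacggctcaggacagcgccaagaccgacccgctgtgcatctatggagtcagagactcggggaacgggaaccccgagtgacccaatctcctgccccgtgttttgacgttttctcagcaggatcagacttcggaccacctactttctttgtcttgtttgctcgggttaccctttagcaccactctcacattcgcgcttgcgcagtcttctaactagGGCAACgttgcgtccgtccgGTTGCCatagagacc
Kcne2: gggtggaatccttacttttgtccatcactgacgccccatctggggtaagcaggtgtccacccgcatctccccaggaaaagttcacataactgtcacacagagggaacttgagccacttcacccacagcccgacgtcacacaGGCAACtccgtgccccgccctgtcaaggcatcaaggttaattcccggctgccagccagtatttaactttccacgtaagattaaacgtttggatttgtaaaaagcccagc
Aqp1: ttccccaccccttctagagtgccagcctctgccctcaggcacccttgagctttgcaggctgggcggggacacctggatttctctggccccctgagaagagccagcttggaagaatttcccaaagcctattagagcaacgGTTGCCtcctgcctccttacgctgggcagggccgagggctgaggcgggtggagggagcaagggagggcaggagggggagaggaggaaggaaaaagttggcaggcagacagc

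Estimated counts summed to between 17628922 (vehicle A) and 27263393 (vehicle B) per sample, and levels are given as CPM, the count scaled to the size of its library. Mitochondrially encoded genes took 4.06% (vehicle E) to 7.90% (vehicle A) of the counts. Fmr1 transcripts were at 9.45 to 13.3 CPM over the 9 samples, which all carry the same label for genotype. A count per gene does not tell which part of a transcript it comes from, and no wild-type sample was analysed here, so these values do not check the knockout label. Markers of hippocampal neurons were present in every sample, with a sum of 7535 to 9895 CPM over the 10 genes listed. Vehicle A stood apart in pituitary hormone genes, whose sum was 79.0 CPM there and at most 2.02 CPM elsewhere. All 19 choroid members and 12 of the 13 ciliated members passed the filter on low counts. The exception, Dnah11, a dynein heavy chain, had between 1 and 11 counts in a sample (0.0517 to 0.465 CPM). Exon bases of 8 members overlap another gene model (Enpp2, Kcnj13, Prlr, F5, Otx2, Rarres2, Dnah11 and Mia), so part of their counts is uncertain.

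Choroid plexus transcripts differed between samples far more than most genes did, and they did so together. The choroid level, the mean log2 CPM over the 19 members, was 3.48, 3.07, 0.88 and 4.29 in the AM6545 samples A, B, C and E, and 5.72, 2.41, 0.48, 5.80 and 5.03 in the vehicle samples A to E. Vehicle A, D and E stood highest, AM6545 C and vehicle C lowest, and the treatment groups overlapped. The distance from vehicle C to vehicle D was 5.32 on the log2 scale, a ratio of 40.0. As a share of all counts, the 19 genes took 0.0335% in vehicle C, with a 95% Wilson interval of 0.0327 to 0.0343%. The share was 1.09% in vehicle D, with an interval of 1.088 to 1.096%, and both intervals cover counting error only. In bulk RNA, fewer cells of a type and less RNA per cell cannot be told apart.

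**Figure D1:**
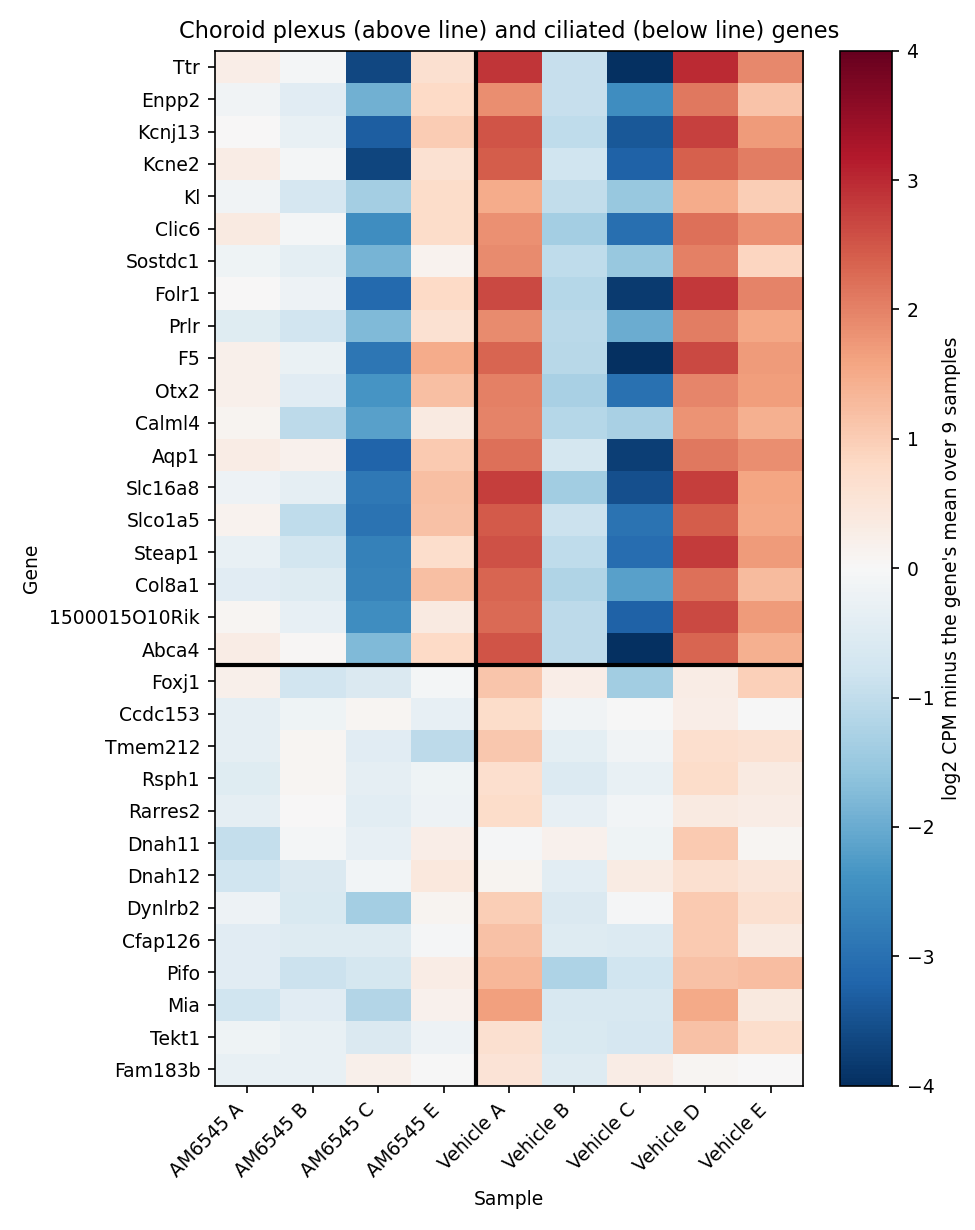
Log2 CPM of the 32 members, with untested Dnah11 among them, minus each member's mean over the samples (colour). Members are in rows by list and the 9 samples in columns. All 19 choroid rows are high in vehicle A, D and E and low in AM6545 C and vehicle C, while the ciliated rows show smaller differences.

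Secreted products led in abundance. Below, CPM values are given in the order A, B, C, E for AM6545 and A to E for vehicle. Ttr (ENSMUSG00000061808.5) encodes transthyretin, the thyroid hormone and retinol carrier of cerebrospinal fluid. It was at 608, 480.4, 40.8 and 795 CPM in the AM6545 samples and 3696, 270.1, 30.9, 3999 and 1907 CPM in the vehicle samples. Per kilobase of transcript it was the most abundant member, with a mean level of 1108 CPM per kb. Enpp2 (ENSMUSG00000022425.17) encodes autotaxin, the secreted enzyme that makes lysophosphatidic acid. Its level was 1353, 1076, 394 and 2583 CPM in the AM6545 samples and 5419, 775, 262, 6457 and 3259.7 CPM in the vehicle samples, a mean of 887 CPM per kb. Ttr and Enpp2 together supplied 89.3 to 92.5% of the summed choroid CPM in a sample. Ttr spanned a ratio of 129 between vehicle C and vehicle D, and Enpp2, which oligodendrocytes also make, a ratio of 24.6 between the same samples.

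Sostdc1, a secreted antagonist of BMP and Wnt signalling, was at 18.1, 15.3, 5.58 and 22.6 CPM in the AM6545 samples and 76.4, 10.1, 7.11, 83.2 and 36.9 CPM in the vehicle samples. In vehicle C it was slightly above AM6545 C, the reverse of Ttr. The secreted peptide gene 1500015O10Rik, also known as Ecrg4, was at 12.9, 9.57, 2.10 and 15.6 CPM in the AM6545 samples and 58.0, 5.86, 1.22, 75.7 and 39.6 CPM in the vehicle samples. Kl encodes Klotho, a single-pass membrane protein that is also shed into the fluid. It ranged from 12.4 to 100.4 CPM, a ratio of 8.07 that was the smallest among the 15 choroid members with more than 3 counts in their lowest sample. F5, coagulation factor V, had the highest such ratio, 134, on a range of 0.355 to 47.8 CPM.

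Channels and transporters followed the same samples. Kcnj13, the inward rectifier Kir7.1 of the apical choroid membrane, was at 24.2, 19.5, 2.36 and 48.1 CPM in the AM6545 samples and 138, 11.9, 2.18, 161 and 78.1 CPM in the vehicle samples. Folr1, the folate receptor through which folate reaches the fluid, was at 12.2, 10.5, 1.33 and 21.1 CPM in the AM6545 samples and 75.3, 5.42, 0.762, 86.0 and 47.7 CPM in the vehicle samples. Both were lowest in vehicle C and highest in vehicle D, and AM6545 C was nearest to vehicle C. Steap1, a metalloreductase family member, was at 4.24, 3.09, 0.730 and 8.62 CPM in the AM6545 samples and 30.7, 2.56, 0.559, 37.0 and 17.2 CPM in the vehicle samples.

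Other transport genes are given by their range over the 9 samples. Kcne2, a potassium channel beta subunit, ranged from 0.472 to 38.2 CPM, and Clic6, a chloride intracellular channel family member, from 2.23 to 85.1 CPM. In the GENCODE annotation of GRCm38 these 2 genes lie close together on chromosome 16 (Kcne2 at 92292389-92298129 and Clic6 at 92485736-92541243, both on the plus strand). Aqp1, the water channel of the apical membrane, reached 5.43 CPM in vehicle A and had no count in vehicle C. Against a floor of 3 counts in that library, vehicle A was at least 35.6-fold higher. Slco1a5, an organic anion transporter, had no count in AM6545 C or vehicle C and reached 3.70 CPM in vehicle A. Abca4, a lipid flippase better known from photoreceptors, had no count in vehicle C and was at least 76.6-fold higher in vehicle A. Slc16a8, the monocarboxylate transporter MCT3, had 1 count in vehicle C and 254 in vehicle D.

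The receptor, the transcription factor and the remaining choroid members kept to that order too. Prlr, the prolactin receptor, was at 10.8, 8.73, 4.38 and 23.1 CPM in the AM6545 samples and 55.4, 7.06, 3.76, 61.8 and 44.3 CPM in the vehicle samples. Otx2 was at 6.25, 3.94, 0.987 and 12.5 CPM in the AM6545 samples and 21.9, 2.16, 0.609, 20.9 and 17.3 CPM in the vehicle samples. In Prlr, vehicle B was below AM6545 A and B, as it was in Ttr. Calml4, a calmodulin-like protein, was at 5.27, 2.33, 1.03 and 6.28 CPM in the AM6545 samples and 19.5, 2.20, 1.93, 17.2 and 13.1 CPM in the vehicle samples. Col8a1, a short-chain collagen, ranged from 0.773 to 27.3 CPM. Every one of the 19 choroid members had vehicle A, D and E as its 3 highest samples and AM6545 C and vehicle C as its 2 lowest. The highest sample was vehicle D for 11 members and vehicle A for 8, and the lowest was vehicle C for 14 and AM6545 C for 5, counting ties once. Kendall's coefficient of concordance of the sample order was 0.984, and the Pearson r between pairs of members had a median of 0.975 and a range of 0.840 to 0.998.

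**Figure D2:**
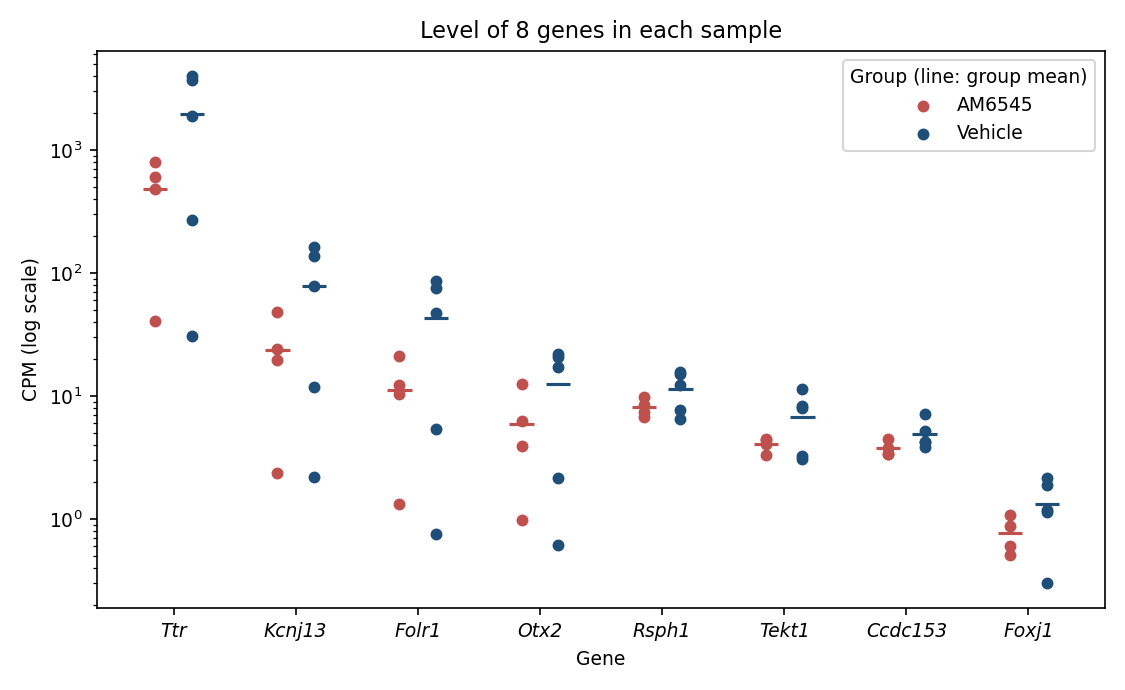
CPM (log axis) of named members in each sample, with AM6545 and vehicle samples apart and a line at each group's mean. The choroid genes span wider ranges than the ciliated genes, and the treatment groups overlap in each.

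Ciliated ependymal genes were low in abundance and varied less. Their level, over the 12 tested members, was 0.89, 0.90, 0.77 and 1.17 log2 CPM in AM6545 A, B, C and E, and 2.16, 0.79, 0.92, 2.01 and 1.77 in vehicle A to E. Vehicle A, D and E again stood highest. The remaining samples lay between 0.77 and 1.17, and the full range of 1.39 on the log2 scale was a ratio of 2.63. Summed over the 13 genes, the level was 26.5 CPM in vehicle B and 67.5 CPM in vehicle A. Transcripts of these genes are shorter than those of the choroid list, with a median of 766 bases against 1781.

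Foxj1, the transcription factor of the motile cilia programme, was at 1.09, 0.508, 0.601 and 0.874 CPM in the AM6545 samples and 2.14, 1.13, 0.305, 1.18 and 1.89 CPM in the vehicle samples. Its lowest level was in vehicle C and its highest in vehicle A, with few counts behind each value.

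Structural genes of the axoneme, the microtubule core of the cilium, came next. Rsph1, a radial spoke head protein, was the most abundant ciliated member per kilobase, with a mean level of 8.38 CPM per kb. It was at 6.72, 9.91, 7.38 and 8.38 CPM in the AM6545 samples and 15.2, 6.51, 7.72, 15.8 and 12.2 CPM in the vehicle samples. Tekt1, which encodes a tektin filament protein of the axoneme, was at 4.50, 4.07, 3.35 and 4.37 CPM in the AM6545 samples and 7.97, 3.26, 3.10, 11.4 and 8.26 CPM in the vehicle samples. Cfap126, known as Flattop and needed for basal body positioning, was at 1.60, 1.53, 1.50 and 2.15 CPM in the AM6545 samples and 5.08, 1.50, 1.47, 4.65 and 2.87 CPM in the vehicle samples. In each of these, vehicle A, D and E were the 3 highest samples. Dynlrb2, a dynein light chain, was at 1.81, 1.36, 0.773 and 2.30 CPM in the AM6545 samples and 4.22, 1.39, 2.03, 4.48 and 3.34 CPM in the vehicle samples. Dnah12, a dynein heavy chain, ranged from 0.207 to 0.719 CPM. Pifo, a protein of ciliary disassembly, was at 1.40, 1.02, 1.16 and 2.38 CPM in the AM6545 samples and 5.03, 0.769, 1.07, 4.48 and 4.64 CPM in the vehicle samples.

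Less well characterised ciliated genes differed among themselves. Fam183b was at 2.43, 2.46, 3.48 and 2.98 CPM in the AM6545 samples and 4.51, 2.09, 3.71, 3.17 and 3.07 CPM in the vehicle samples. Ccdc153 was at 3.36, 3.77, 4.51 and 3.38 CPM in the AM6545 samples and 7.16, 3.88, 4.27, 5.16 and 4.25 CPM in the vehicle samples. In both, vehicle A was highest. AM6545 C and vehicle C, the lowest samples for the choroid genes, were above vehicle D and E for Fam183b and above vehicle E for Ccdc153. Tmem212, a membrane protein of ependymal cells, was at 0.827, 1.14, 0.773 and 0.477 CPM in the AM6545 samples and 2.37, 0.805, 0.965, 1.78 and 1.69 CPM in the vehicle samples.

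The list also holds a pair of secreted products. Rarres2, the chemoattractant chemerin, was at 3.41, 4.45, 3.26 and 3.81 CPM in the AM6545 samples and 7.28, 3.48, 4.01, 5.66 and 5.43 CPM in the vehicle samples. Mia, a small secreted protein first described in melanoma, was at 1.03, 1.36, 0.773 and 2.11 CPM in the AM6545 samples and 5.95, 1.17, 1.17, 5.50 and 2.48 CPM in the vehicle samples, with a ratio of 7.70 between the highest and the lowest sample. Over the 12 tested ciliated members, that ratio ran from 2.13 to 7.70. Vehicle A was among the 3 highest samples for 11 of the 12, vehicle D for 11 and vehicle E for 10. Concordance of the sample order was 0.633, and the r between pairs of members had a median of 0.716 and a range of 0.0920 to 0.975.

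The question put to these genes was whether the choroid plexus and the ciliated ependyma varied together between samples. The ciliated level was higher where the choroid level was higher, with Pearson r = 0.851 and Spearman rho = 0.800 over 9 samples. The slope was 0.24 ± 0.06 (SE) log2 units of ciliated level per log2 unit of choroid level. On the log2 scale the relation was not a straight line. In the 5 samples with a choroid level of up to 3.48 the ciliated level stayed between 0.77 and 0.92, and over the other 4 it was 1.17 (AM6545 E), 1.77 (vehicle E), 2.16 (vehicle A) and 2.01 (vehicle D). Summed CPM of the choroid and ciliated lists was 328 and 30.5 in vehicle C, 2138 and 28.4 in AM6545 A, and 3683 and 34.0 in AM6545 E. It was 5680 and 51.0 in vehicle E, 9891 and 67.5 in vehicle A, and 11325 and 64.4 in vehicle D. A line through summed CPM was not fitted, so the shape is stated for the log2 scale only. Without the samples farthest from the median choroid level, AM6545 C and vehicle C, r was 0.964, rho 0.929 and the slope 0.42 ± 0.05 (SE) over 7 samples. Without vehicle A, r was 0.820. Both levels came from the same libraries and share their depth and scaling, so r is a description. Choroid epithelial cells carry cilia as well, so r describes the gene lists and not separate tissues. Which cells the ciliated transcripts came from was not tested.

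**Figure D3:**
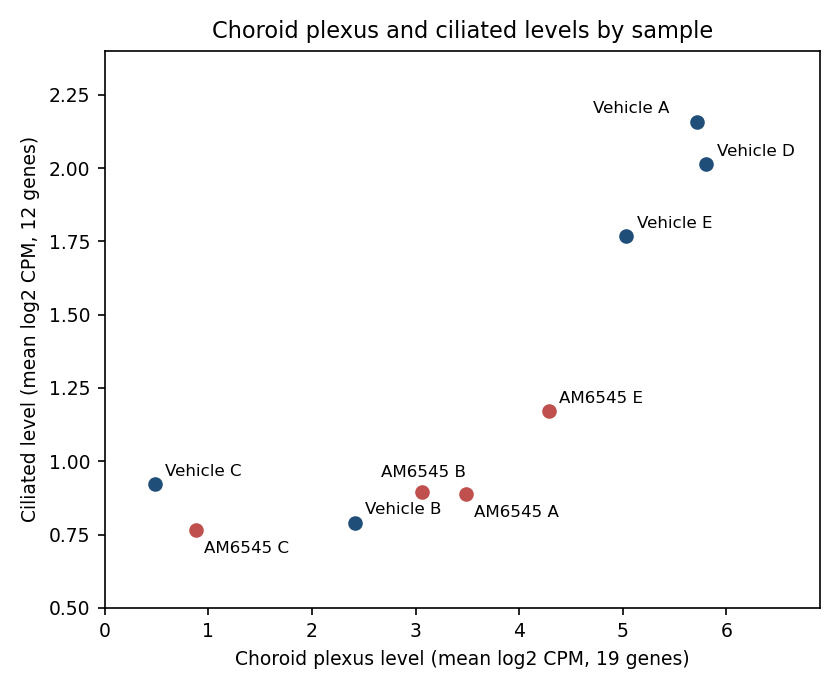
Ciliated level against choroid level (mean log2 CPM over the tested members of each list), 1 point per sample, coloured by treatment. The ciliated level is nearly flat up to a choroid level of 3.48 and reaches 2.16 in vehicle A.

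Across the 228 pairs of a choroid and a ciliated member, r had a median of 0.792 and a range of -0.0173 to 0.948. Of the 12 tested ciliated members, 11 had a higher r with the ciliated level than with the choroid level, each level computed without the gene in question. Foxj1 was the exception, with r = 0.818 for the choroid level and 0.646 for the ciliated level. All 19 choroid members were closer to the choroid level. An r of at least 0.9 with the choroid level was found for 19 of 19 choroid members and for 0 of 12 ciliated members, where the background over all 14512 genes tested was 1.34% (194 genes).

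Slopes on the choroid level showed how far each gene moved per log2 unit. They ran from 0.59 for Kl to 1.31 for Ttr among choroid members, with a median of 1.06, and from 0.02 for Fam183b to 0.45 for Pifo and 0.45 for Mia among ciliated members, with a median of 0.25. The 5 choroid members with slopes under 0.9 were Kl, Enpp2 (0.82), Sostdc1 (0.67), Calml4 (0.71) and Prlr (0.77). Ciliated members differed in slope. Pifo (SE 0.10), Mia (SE 0.10), Foxj1 (0.34 ± 0.09, SE) and Dynlrb2 (0.34 ± 0.09, SE) were steepest. Fam183b (SE 0.06), Ccdc153 (0.07 ± 0.06, SE) and Dnah12 (0.09 ± 0.09, SE) were nearly flat, with r = 0.140, 0.386 and 0.350. Dnah12 had 4 to 17 counts in a sample and Foxj1 6 to 48, so their slopes and r include counting error. The SD of log2 CPM over samples was 1.20 to 2.54 for choroid members and 0.33 to 1.02 for ciliated members, against a median of 0.21 over all genes tested. The least variable choroid member thus stood at percentile 99.1 of all genes by SD, and the least variable ciliated member, Fam183b, at percentile 81.2. These percentiles are not matched for abundance, and counting error adds to the SD of genes with few counts. Fam183b had 47 to 81 counts in a sample.

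**Figure D4:**
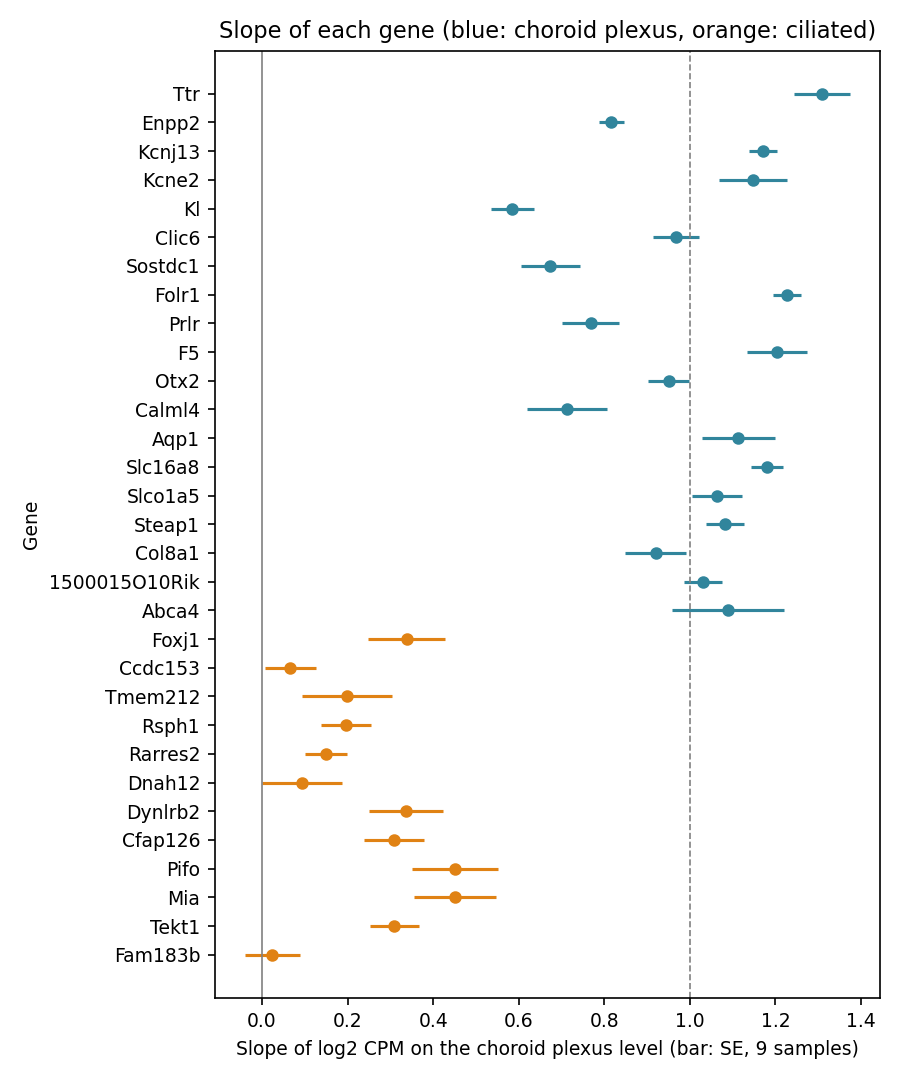
Slope of each tested member's log2 CPM on the choroid level computed without that gene, over 9 samples, with the standard error as bars. Choroid members lie between 0.59 and 1.31 and ciliated members between 0.02 and 0.45.

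Between AM6545 and vehicle, no choroid or ciliated gene passed the test, and the groups overlapped for every member. Overlap was the usual case, since the groups were apart for only 210 of all 14512 genes tested. With edgeR's quasi-likelihood test and Benjamini-Hochberg adjustment over all 14512 genes, 0 of the 31 tested members were called at an adjusted p of 0.05, where the background was 0% (0 genes), and the smallest adjusted p of a member was 0.653. DESeq2 also called 0 members. The choroid level averaged 2.93 ± 1.46 log2 CPM (SD, n = 4) with AM6545 and 3.89 ± 2.35 (SD, n = 5) with vehicle, a difference of -0.96 that is smaller than the SD of either group. For the ciliated level the means were 0.93 ± 0.17 (SD, n = 4) and 1.53 ± 0.63 (SD, n = 5), a difference of -0.60 that is smaller than the SD of the vehicle group. Vehicle B and vehicle C had ciliated levels within the AM6545 range. The difference in choroid level was -0.28 without AM6545 C, -0.48 without vehicle D, -0.50 without vehicle A, and -1.81 without vehicle C. The difference in ciliated level was -0.44 without vehicle A.

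Every tested member had a negative fitted log2 fold change (AM6545 over vehicle): -2.06 to -0.90 with a median of -1.53 for the 19 choroid genes, and -1.28 to -0.21 with a median of -0.77 for the 12 ciliated genes. Over all genes tested the median was -0.01 and 51.8% were negative. Since the members follow a common sample order, their shared direction counts a difference between samples many times over. The choroid and ciliated medians were larger in size than the differences in the mean log2 level of each list given above. Of the members, 6 choroid genes (31.6%) and 7 ciliated genes (58.3%) had an unadjusted p under 0.05, all lower with AM6545, where the background was 4.18% of genes (607) in that direction. DESeq2 gave 0 choroid and 7 ciliated members by that measure, where 1121 of 14512 genes had such a p in either direction. Leaving out a library moved the total of 13: it was 1 without vehicle A, 1 without vehicle D, 2 without AM6545 C, 4 without AM6545 A, 5 without AM6545 B, 6 without vehicle E, 18 without AM6545 E, 24 without vehicle B and 28 without vehicle C. Over all genes tested the matching totals, in either direction, moved as well. They were 1047 in the main fit, 496 without vehicle A, 866 without vehicle D and 690 without AM6545 C. Without AM6545 A, AM6545 B and vehicle E they were 663, 642 and 943. Without AM6545 E, vehicle B and vehicle C they were 1848, 1797 and 1023.

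Steap1 had the fitted fold change largest in size among choroid members, -2.06 ± 0.84 (SE), with an unadjusted p of 0.0269 in edgeR's quasi-likelihood fit. Its mean level was 4.17 ± 3.31 CPM (SD, n = 4) with AM6545 and 17.6 ± 16.3 CPM (SD, n = 5) with vehicle. The other choroid members with an unadjusted p under 0.05 were Folr1 at -1.93 ± 0.89 (SE), 1500015O10Rik at -1.84 ± 0.80 (SE), Prlr at -1.55 ± 0.67 (SE), Calml4 at -1.53 ± 0.64 (SE) and Sostdc1 at -1.47 ± 0.61 (SE). For Ttr the fold change was -2.04 ± 0.99 (SE), and its mean level was 481 ± 321 CPM (SD, n = 4) with AM6545 and 1981 ± 1854 CPM (SD, n = 5) with vehicle. Within the vehicle samples alone, Ttr ranged from 30.9 to 3999 CPM. Fold changes were -1.26 ± 0.71 (SE) for Enpp2, -1.73 ± 0.88 (SE) for Kcnj13 and -1.08 ± 0.76 (SE) for Otx2.

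Among ciliated members, Mia at -1.28 ± 0.49 (SE), Pifo at -1.09 ± 0.50 (SE), Dynlrb2 at -0.98 ± 0.36 (SE), Tmem212 at -0.90 ± 0.36 (SE), Cfap126 at -0.86 ± 0.36 (SE), Tekt1 at -0.74 ± 0.33 (SE) and Rarres2 at -0.46 ± 0.21 (SE) had an unadjusted p under 0.05 in the same fit. Dynlrb2 had the smallest, 0.0175, on a mean level of 1.56 ± 0.653 CPM (SD, n = 4) with AM6545 and 3.09 ± 1.35 CPM (SD, n = 5) with vehicle. The remaining ciliated genes included Foxj1 at -0.80 ± 0.43 (SE), Rsph1 at -0.50 ± 0.24 (SE), Ccdc153 at -0.39 ± 0.20 (SE) and Fam183b at -0.21 ± 0.22 (SE). None of these values passed adjustment over all genes.

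A longer list of 33 genes of choroid transport and secretion, none of them members, followed the choroid genes in part. No gene of it was called, 28 had a negative fold change and 5 a positive one, and the median was -0.71. Its mean log2 level had r = 0.994 with the choroid level, and 21 of the 33 genes had r of at least 0.9. Among those were Slc4a5, a sodium bicarbonate cotransporter of the choroid epithelium (r = 0.994, 0.343 to 10.7 CPM), Igfbp2, an IGF carrier (r = 0.984, 23.0 to 171 CPM), the tight junction gene Cldn2 (r = 0.977, 1.17 to 20.7 CPM) and the ion channel gene Trpv4 (r = 0.973, 0.355 to 11.4 CPM). These 4 were picked after their values were seen. The 3 most abundant genes of the list are made widely in brain, and they did not follow: r was 0.192 for the sodium pump subunit Atp1b1, 0.579 for transferrin (Trf) and 0.326 for Slc22a17.

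Genes of the axoneme and of ciliogenesis, 63 in the list and 58 tested, differed widely among themselves. Their mean log2 level had r = 0.799 with the choroid level and 0.908 with the ciliated level, on a range of 0.63 between samples. None was called, 44 had a negative fold change and 14 a positive one, and the median was -0.29. An r of at least 0.9 was found for 4 of the 58 with the choroid level (Drc7, Cfap52 and Spag16 among them) and for 7 with the ciliated level. Drc7, a dynein regulatory complex subunit, had r = 0.986 with the choroid level and 0.819 with the ciliated level. The 3 most abundant genes of the list, the transcription factor Rfx3 (r = 0.194 with the choroid level) and the radial spoke genes Rsph3a (-0.274) and Rsph9 (0.814), were unlike each other. Genes of early multiciliated cell fate, Mcidas and Gmnc, had r = -0.727 and -0.735, and were picked after their values were seen.

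Marker lists of other cells show what else differed between the samples. The haemoglobin list came nearest in pattern among the blood and glial lists. Its summed level was 717, 347, 255 and 472 CPM in AM6545 A, B, C and E and 1239, 382, 290.1, 714 and 430.1 CPM in vehicle A to E, with r = 0.831 between its mean log2 level and the choroid level. Its 3 most abundant genes had r = 0.816 (Hba-a1), 0.813 (Hba-a2) and 0.794 (Hbb-bs). Globin genes have near-identical copies, so reads could be split between them. Genes of fenestrated vessels and choroid stroma gave r = 0.927 for the list level and a sum of 478 to 676 CPM, but its most abundant genes did not follow, with r = -0.323 for Plvap, 0.359 for Plpp3 and 0.108 for Dcn. Plvap, the diaphragm protein of fenestrated endothelium, was at 11.5 to 19.1 CPM. For oligodendrocytes the list level had r = 0.696, on a sum of 10946 CPM (vehicle C) to 22724 CPM (vehicle A), with r = 0.653 for Mbp and 0.574 for Mobp.

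Endothelial genes had a list level with r = 0.685, with 0.892 for Slco1a4, 0.838 for Itm2a and 0.240 for Ly6c1 as its most abundant genes, where Slco1a4 is also a transporter of the choroid epithelium. Mural and leptomeningeal genes had r = 0.717, with 0.692 for Vtn, -0.188 for Rgs5 and 0.430 for Aldh1a2. Lower values were found for microglia (0.503, with P2ry12 and Csf1r at 0.474 and 0.169), astrocytes (0.393, with Slc1a2, Slc1a3 and Aldoc at 0.603, 0.265 and 0.182) and tanycytes (0.383, with Crym and Col23a1 at -0.334 and 0.158). The tanycyte marker Rax was at 0 to 0.347 CPM. Neuronal genes ran the other way, with r = -0.752 for the list level and -0.701, -0.231 and -0.296 for Snap25, Syt1 and Slc17a7. The part of other cells, of depth and of the mitochondrial share in these differences was not tested.

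**Figure D5:**
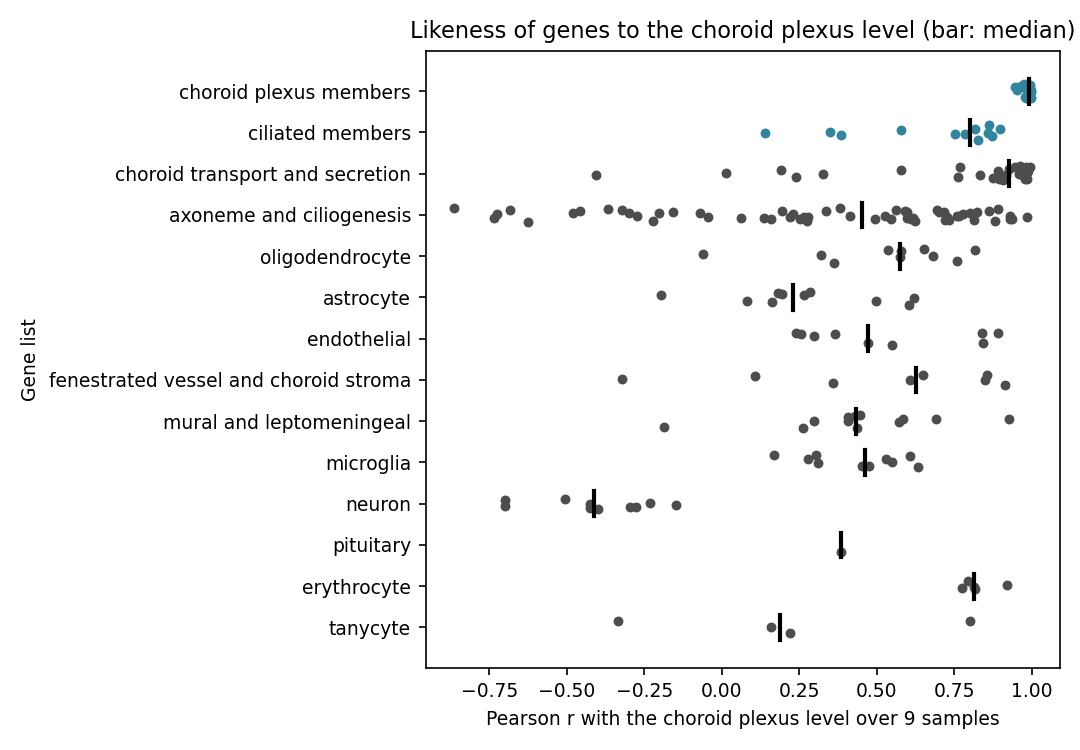
Pearson r of each tested gene with the choroid level over 9 samples (horizontal axis), 1 row of points per gene list with its median marked. The choroid members lie at the right. So does most of the choroid transport list (21 of 33 genes at r of at least 0.9), with other genes of it at lower values. The axoneme list spreads widely, and the neuronal genes have a median left of 0.

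Outside the lists of members, the 10 genes most like the choroid level, among those with an SD of at least 0.5, were Slc4a5, Slc22a18, Slc24a5, Rdh5, Baiap2l1, Lbp, Drc7, Wdr86, Lepr and A2m, with r of 0.985 to 0.994 over 9 samples. Lepr, the leptin receptor, was at 0.660 CPM in vehicle C and 10.9 CPM in vehicle D. Rdh5, a retinol dehydrogenase, was at 2.59 CPM in vehicle C and 41.6 CPM in vehicle A. The 10 most like the ciliated level were Cd59a, Spint2, Gpx8, Sgms2, Mlf1, Perp, 2410004P03Rik, Vamp8, Slc31a1 and Cldn3, with r of 0.962 to 0.990. Slc31a1 is in the list of choroid transport and secretion, and none of these genes is in the list of the axoneme and ciliogenesis. Cd59a, a complement inhibitor of the cell surface, was at 6.40 CPM in AM6545 C and 35.6 CPM in vehicle A. In 14481 tested genes that are not members, r of at least 0.9 was found for 175 with the choroid level and for 118 with the ciliated level.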

How the data were processed

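The 9 hippocampal synaptoneurosome RNA libraries (4 AM6545, 5 vehicle) were analysed from a table of estimated counts per gene that the authors deposited. The submitters' processing notes name Salmon 1.3 and DESeq2 1.30, and the builds GRCm39 and mm10, so coordinates of members on the authors' build are not used here. Estimated counts were rounded to whole numbers. Gene symbols, lengths and exon overlaps came from GENCODE M21 (22155 of 22255 identifiers matched). Genes with low counts were removed with edgeR's filterByExpr (minimum count 10), which left 14512. edgeR 4.0.16 (R 4.3.3) with TMM scaling and its quasi-likelihood F-test compared the groups, with Benjamini-Hochberg adjustment over all genes tested and a threshold of 0.05, and the method was tested on simulated data. Log2 CPM used a prior count of 2. Alternatives were DESeq2 1.42.0, other scalings, no filter, a prior count of 0.5, other summaries over members, a replicate block and leaving out each library. Members and lists were chosen with earlier results of these data known. Named with values were the 4 most abundant members per kilobase in each list, Foxj1, Otx2, members with an unadjusted p under 0.05, the 10 genes most like each level and the 3 most abundant genes of each other list. Dnah11 was under the count filter and was described only. A few genes that this rule names are not reported here.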

Additional observations from a re-analysis of the deposited data

Results flagged for a closer look

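Cfap126, which encodes a protein of the basal body, was at 2.15 CPM in AM6545 E and between 1.50 and 1.60 CPM in the other AM6545 samples. The gap from AM6545 E to the nearest sample was 0.844 of the group's whole range, above Dixon's critical ratio for a group of 4 samples. It was the only value so marked among 46 groups of values compared in this way, where chance at 1 in 20 would mark 2.3. AM6545 E also had the highest choroid level (4.29 log2 CPM) and the highest ciliated level (1.17 log2 CPM) of the AM6545 samples, and its part in the value was not tested.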

How the results depend on the processing

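No member was called under any of the 14 alternatives (DESeq2, total counts, DESeq2 size factors, no filter, the replicate block and 9 fits that each leave out a library), and all 466 fitted fold changes of members over these and the main settings were negative. The smallest adjusted p of a member over the alternatives was 0.320. With the replicate letter as a replicate block, 0 members were called. The median log2 fold change was -0.70 for choroid and -0.48 for ciliated genes. In that edgeR fit 7 members had an unadjusted p under 0.05, as did 759 of all 14512 genes tested. No AM6545 sample has the letter D, so vehicle D was alone in its block and did not inform the difference. Without vehicle D and without blocks, the medians were -1.23 for choroid and -0.57 for ciliated genes. Deviations of same-lettered samples had correlations of -0.0183 (A), 0.0374 (B), 0.336 (C) and -0.0212 (E). Those of samples with different letters ran from -0.279 to 0.351. The labels do not say what the letters mark, so they were not taken to pair samples in the main fit. AM6545 C and vehicle C, which share a letter, were the 2 lowest samples for all 19 choroid members. The difference between groups ran from -1.81 to -0.28 in the choroid level and from -0.78 to -0.44 in the ciliated level when a library was left out. The r between the levels ran from 0.810 to 0.902 in those settings, and was 0.964 without AM6545 C and vehicle C, an alternative chosen after seeing the data. Differences in the levels had no test of their own. With 4 and 5 samples, no fitted fold change of a member passed adjustment. The choroid level spread 40.0-fold over the 9 samples and the ciliated level 2.63-fold, and the part of that spread in the result was not tested.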

Other observations

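Pituitary hormone genes, outside the comparisons of the report, summed to 79.0 CPM in vehicle A and to between 1.06 and 2.02 CPM in the other 8 samples. Growth hormone (Gh) was at 51.8 CPM in vehicle A and at most 1.40 CPM elsewhere, and proopiomelanocortin (Pomc) at 23.0 CPM against at most 1.10 CPM. Outside vehicle A, prolactin (Prl) was at no more than 0.118 CPM. Vehicle A is also among the 3 highest samples for all choroid members and for 11 of 12 ciliated members. The other samples that stood highest for the choroid genes, vehicle D and vehicle E, had pituitary sums of 1.61 and 1.06 CPM. Any link between pituitary genes and the choroid and ciliated levels was not tested.

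The next genes were picked after their values were seen. Trpm3, an ion channel gene of the choroid epithelium, had r = 0.914 with the choroid level and 0.922 with the ciliated level, but spanned only 30.0 to 87.5 CPM over the 9 samples. Htr2c, the serotonin receptor that is abundant in choroid plexus and is also made by neurons, was at 10.6 to 22.9 CPM with r = 0.767, and it was highest in vehicle D.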
